A study of Pan troglodytes with 8 samples.

Results

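Glypicans and syndecans are the main families of cell surface heparan sulfate proteoglycans, and their 10 genes were examined here in cells sorted from chimpanzee cerebral organoids. The members were taken by gene symbol (GPC1, GPC2, GPC3, GPC4, GPC5, GPC6, SDC1, SDC2, SDC3 and SDC4) from a table of RNA-seq read counts on the chimpanzee genome panTro6, which holds 60583 named genes. All 10 were present and all 10 passed the filter on low counts. The organoids were grown from SandraA, an induced pluripotent stem cell line of a chimpanzee, and collected at week 8. Bulk RNA was sequenced from 4 populations obtained by fluorescence-activated sorting. They were radial glia of the apical (aRG) and the basal kind (bRG), intermediate progenitors of the basal kind (bIP) and BCL11B-positive neurons (N). Each population had 2 libraries, numbered 1 and 2. The labels give no genetic change, no drug treatment and no second cell line, so every group shares the genome of 1 line. Whether libraries 1 and 2 of a population were grown and sorted separately is not stated, and the p-values rest on their spread, which may be technical only.

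Both families carry long sulfated sugar chains on a protein core. Glypicans are held in the outer leaflet of the membrane by a glycosylphosphatidylinositol (GPI) anchor, whereas syndecans span the membrane and end in a short cytoplasmic tail. The chains bind growth factors, morphogens and axon guidance proteins such as FGFs, WNTs, pleiotrophin and SLITs, and can present them to their receptors. In the developing cortex, apical radial glia are stem cells at the ventricle, their basal counterparts divide away from it, intermediate progenitors divide a few more times, and neurons extend axons along heparan sulfate-rich paths.

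Library totals were 24649971 to 33245892 counts. The marker lists set radial glia, bIP and N apart. No separate list of basal radial glia markers was used, so the lists do not show whether bRG differed from aRG in basal identity. The 10 radial glia markers summed to 3206 and 3429 CPM (read counts relative to library size) in aRG, 2273 and 2085 in bRG, 517 and 564 in bIP, and 171 and 89.2 in N. Of these 10 markers 0 were called between bRG and aRG by edgeR, where 2 had an unadjusted p under 0.05. HOPX, a common marker of basal radial glia, averaged 45.8 CPM in aRG and 30.8 in bRG, and FAM107A, another, 36.9 and 33.5. The 9 intermediate progenitor markers summed highest in bIP (3339 and 4363 CPM, against 454 to 1128 elsewhere). The 10 neuronal markers summed highest in N (8138 and 7491 CPM), with 3677 and 4156 in bIP. Single markers could differ. RBFOX3 and SLC17A6 averaged more in bIP (200.2 and 72.9 CPM) than in N (137 and 59.7), and PENK was highest in aRG at 2.53. The aRG libraries also held markers of other tissue. All 8 choroid plexus markers were detected, with sums of 986 and 3324 CPM in the 2 aRG libraries and 46.9 to 90.2 in the other 6, and all 9 mesenchymal markers were detected, with sums of 404 and 2039.9 CPM in aRG against 18.9 to 357 elsewhere. Among the members, values without the second aRG library are therefore given for GPC2, GPC3, SDC1 and SDC2. The first aRG library, with the lower sums of these markers, stays in those fits. Levels below are CPM after TMM scaling (the trimmed mean of M values), given for libraries 1 and 2 in that order. In bulk samples, fewer expressing cells and less RNA per cell cannot be told apart.

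Of the 10 members, 6 had their highest mean level in apical radial glia and their lowest in neurons. Between N and aRG, 7 of the 10 passed an adjusted p of 0.05: GPC3, GPC4, GPC6, SDC1, SDC2 and SDC4 were lower in neurons and SDC3 was higher. In the same test 9.67% of the 35382 genes were called (4.80% lower and 4.87% higher in N), and 23.4% of those that averaged 10 CPM or more in a population. With both radial glia populations set against both committed ones (bIP and N), 8 of 10 members were called, 7 higher in radial glia and GPC2 lower, where 9.39% of all genes were called (4.92% higher and 4.47% lower in radial glia), and 22.8% of those with at least 10 CPM. The median difference of the 10 members was a log2 value of -2.46 for N against aRG, beside -0.08 over all genes tested, and 1.60 for radial glia against committed cells, beside 0.05. All tests are from edgeR's quasi-likelihood model over the 8 libraries, with Benjamini-Hochberg adjustment over all genes.

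**Figure D1:**
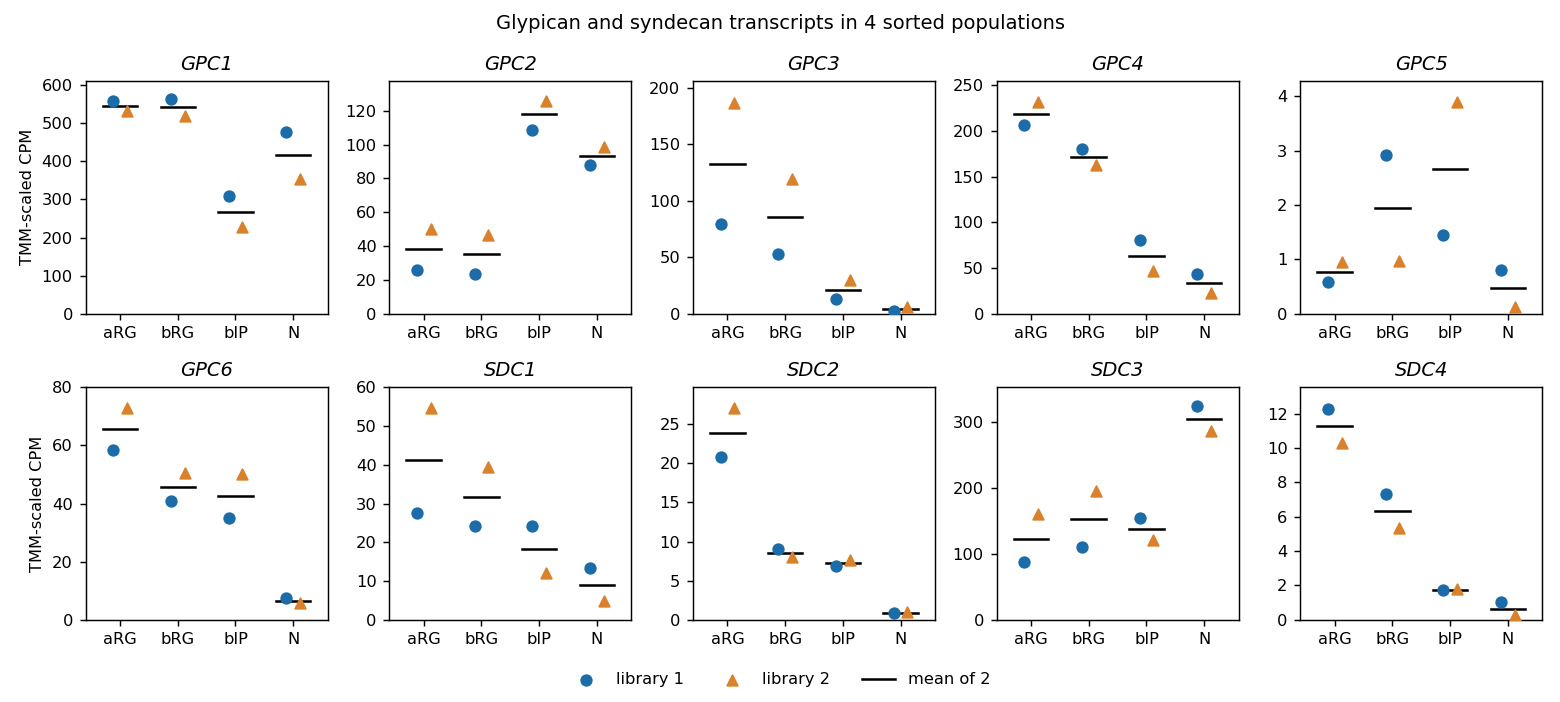
TMM-scaled CPM (vertical axes, each from 0) of the 10 members in the 4 sorted populations, with library 1 as a circle, library 2 as a triangle and a line at their mean. GPC3, GPC4, SDC2 and SDC4 step down from aRG to N, GPC2 stands high in bIP and N, and SDC3 stands high in N.

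GPC3, a glypican known for restraining hedgehog signalling and for its link to overgrowth when lost, had the largest fitted difference of the 10 between N and aRG. It was at 79.3 and 187 CPM in aRG, 53.1 and 119 in bRG, 13.0 and 29.9 in bIP, and 2.09 and 5.70 in N. The radial glia libraries did not overlap the bIP or N libraries, while aRG and bRG overlapped each other. GPC3 fell by 5.10 log2 units (SE 0.66, adjusted p = 0.000379) from aRG to N, a 34.3-fold lower level. The difference was -5.18 within the libraries numbered 1 and -5.01 within those numbered 2. Without the second aRG library, which had the highest choroid plexus and mesenchymal sums, it was -4.37 (adjusted p = 0.000194), and without the second N library -5.99, still called. GPC3 also fell from bRG to N by 4.47 (SE 0.64, adjusted p = 0.00162). That value was -3.80 without the second bRG library and -5.36 without the second N library, both still called. From aRG to bIP it fell by 2.63 (SE 0.59, adjusted p = 0.0310), a call lost without the second aRG library (-1.89, adjusted p = 0.137) and without the first bIP library (adjusted p = 0.142), and larger without the second bIP library (-3.36). Between bIP and N the log2 value was -2.46 (SE 0.60) with an adjusted p of 0.0529.

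GPC4, expressed by neural precursors and astrocytes and known for recruiting glutamate receptors to synapses, had the same order. Its levels were 207 and 232 CPM in aRG, 180.2 and 163 in bRG, 80.2 and 46.9 in bIP, and 43.7 and 22.5 in N. No 2 populations overlapped, although the gap between bIP and N was small beside the spread within each. GPC4 fell by 2.73 log2 units (SE 0.36, adjusted p = 0.000428) from aRG to N, and N against bRG gave -2.37 (SE 0.36, adjusted p = 0.00201). Both calls held without any 1 library. From aRG to bIP it fell by 1.79 (SE 0.35, adjusted p = 0.0157), a call lost without the second bIP library (adjusted p = 0.139). Between N and bIP the value was -0.94 (SE 0.34, adjusted p = 0.204). The tests of bIP against bRG (-1.43, SE 0.35, adjusted p = 0.0863) and bRG against aRG (-0.35, SE 0.34) did not pass either.

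GPC6, a glypican that astrocytes release to promote synapse formation, was also lower in neurons than in intermediate progenitors. It stood at 58.4 and 72.9 CPM in aRG, 41.0 and 50.6 in bRG, 35.1 and 50.3 in bIP, and 7.35 and 5.83 in N. The bIP and bRG libraries overlapped, and neurons lay far below all 6 others. GPC6 fell by 2.69 log2 units (SE 0.33, adjusted p = 0.00130) from bIP to N, one of the 2 members called in that comparison, both lower in N. There 2.54% of all genes were called (1.48% lower in N), and 6.62% of those with at least 10 CPM. From aRG to N it fell by 3.32 (SE 0.34, adjusted p = 7.02e-05), and N against bRG gave -2.80 (SE 0.33, adjusted p = 0.000356). These 3 calls held without any 1 library. Between bIP and aRG the value was -0.62 (SE 0.30, adjusted p = 0.419).

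GPC2, a glypican found on immature neurons and neuroblastoma cells, ran the other way. Its levels were 25.6 and 50.4 CPM in aRG, 23.4 and 46.8 in bRG, 109 and 126 in bIP, and 88.1 and 98.7 in N. Both committed populations lay above both radial glia populations in every library. Against aRG it rose in bIP by 1.63 log2 units (SE 0.38, adjusted p = 0.0419), one of 4 members called in that comparison (3 lower in bIP and GPC2 higher). There 2.83% of all genes were called (1.50% lower and 1.34% higher in bIP), and 7.66% of those with at least 10 CPM. This call was lost without the first aRG library (adjusted p = 0.234), the first bIP library (0.0727) or the second bIP library (0.151). Against bRG it rose in N by 1.41 (SE 0.38, adjusted p = 0.0494), and this call was lost without the first bRG library (0.355), the first N library (0.0719) or the second N library (0.139). It was also lost with DESeq2 size factors in edgeR (0.0526), with a filter of at least 5 CPM in 2 libraries (0.0625) and with only the bRG and N libraries in the model (0.0746). N against aRG gave 1.30 (SE 0.38, adjusted p = 0.0515). With 4 libraries on each side, GPC2 was lower in radial glia than in committed cells, with a log2 difference of -1.52 (SE 0.27, adjusted p = 0.00313), and this call held without any 1 library. Levels of GPC2 in bIP and N did not differ beyond their error (-0.33, SE 0.37, adjusted p = 0.737).

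GPC1, the glypican of neurons and neural precursors that modulates FGF and SLIT signals, was present at 228 CPM or more in all 8 libraries. It was at 559 and 533 CPM in aRG, 565 and 519 in bRG, 309 and 228 in bIP, and 478 and 353 in N. Its lowest population was bIP, which no other population overlapped. None of the 6 pairwise tests called GPC1, with bIP against aRG nearest at -1.03 (SE 0.25, adjusted p = 0.0546). Over both radial glia populations it was higher than in committed cells by 0.70 (SE 0.18, adjusted p = 0.0261), a call lost without the first bRG library (adjusted p = 0.0566), the second bIP library (0.140) or the second N library (0.0928).

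GPC5, a close relative of GPC6, was near the floor of detection. It had 15 and 32 counts in aRG, 90 and 31 in bRG, 37 and 99 in bIP, and 21 and 3 in N, or 0.129 to 3.89 CPM. The 2 libraries of bRG, bIP and N each differed more than 2-fold, with library 2 at 0.335, 2.71 and 0.159 times library 1. No comparison called GPC5, and SEs of 1.02 to 1.09 in the pairwise tests mean that large differences could not be detected at this depth.

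Among the syndecans, SDC2, which takes part in dendritic spine formation, had the largest fitted drop. Its levels were 20.8 and 27.0 CPM in aRG, 9.05 and 7.97 in bRG, 6.87 and 7.67 in bIP, and 0.851 and 0.949 in N, the last from 22 counts in each library. The aRG libraries lay above all others and the N libraries below all others, while bRG and bIP were separated by a small gap. SDC2 fell by 4.73 log2 units (SE 0.48, adjusted p = 7.21e-05) from aRG to N. N against bRG gave -3.24 (SE 0.46, adjusted p = 0.00135) and N against bIP -3.01 (SE 0.45, adjusted p = 0.00434). These 3 calls held without any 1 library, and the aRG to N value was -4.55 without the second aRG library. With only the bIP and N libraries in the model, the last call was lost (adjusted p = 0.0637). From aRG to bIP it fell by 1.72 (SE 0.41, adjusted p = 0.0476), a call that was lost without each of the 6 aRG, bRG and bIP libraries in turn (adjusted p of 0.0581 to 0.334) and with only the aRG and bIP libraries in the model (0.0514).

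SDC4, the syndecan of focal adhesions, followed a similar order at a lower count. It was at 12.3 and 10.3 CPM in aRG, 7.30 and 5.36 in bRG, 1.71 and 1.77 in bIP, and 1.01 and 0.259 in N, where the 2 libraries had 26 and 6 counts. No 2 populations overlapped, but with 2 libraries each this alone does not show a difference. The tests of bRG against aRG (-0.83, SE 0.61), bIP against bRG (-1.86, adjusted p = 0.301) and N against bIP (-1.44, adjusted p = 0.327) did not pass. SDC4 fell by 4.14 log2 units (SE 0.71, adjusted p = 0.00241) from aRG to N. That value was -5.42 without the first N library and -3.48 without the second, both still called. From bRG to N it fell by 3.30 (SE 0.69, adjusted p = 0.0136), a call lost without the second N library (-2.65, adjusted p = 0.0744) or with only the bRG and N libraries in the model (0.0602). Without the first N library it was -4.59. Against committed cells, SDC4 was higher in radial glia by 3.00 (SE 0.48, adjusted p = 0.00143), or 3.64 without the first N library. bIP against aRG gave -2.69 (SE 0.66), which at an adjusted p of 0.05 (rounded) did not pass.

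SDC1, an epithelial syndecan also present on neural progenitors, was less even between libraries. Its levels were 27.7 and 54.7 CPM in aRG, 24.1 and 39.4 in bRG, 24.2 and 12.1 in bIP, and 13.3 and 4.75 in N. Library 2 was the higher in both radial glia populations and the lower in both committed ones, and bIP overlapped both bRG and N. SDC1 fell by 2.19 log2 units (SE 0.55, adjusted p = 0.0237) from aRG to N, with -1.05 within the libraries numbered 1 and -3.50 within those numbered 2. The call was lost without the second aRG library (-1.64, adjusted p = 0.122) or the second N library (-1.63, adjusted p = 0.123), and the value was -3.12 without the first N library. The part of the choroid plexus and mesenchymal markers of the second aRG library in this difference was not tested. SDC1 was higher in radial glia than in committed cells by 1.50 (SE 0.38, adjusted p = 0.0255), which was not called without the second aRG library (adjusted p = 0.0647) or the second bIP library (0.0712).

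SDC3, the main syndecan of neurons and a receptor for pleiotrophin, was the only syndecan with its highest level in N. It stood at 87.1 and 159.8 CPM in aRG, 111 and 195 in bRG, 154 and 121 in bIP, and 324 and 286 in N. The neuron libraries lay above all 6 others, and the aRG, bRG and bIP libraries overlapped. SDC3 rose by 1.31 log2 units (SE 0.34, adjusted p = 0.0317) from aRG to N, with 1.89 within the libraries numbered 1 and 0.84 within those numbered 2. The call was lost without the first aRG library (0.86, adjusted p = 0.256), the first N library (adjusted p = 0.0905) or the second N library (0.0526), and with only the aRG and N libraries in the model (0.0539). The values of N against bRG (1.00, SE 0.34, adjusted p = 0.126) and against bIP (1.15, SE 0.34, adjusted p = 0.112) did not pass.

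**Figure D2:**
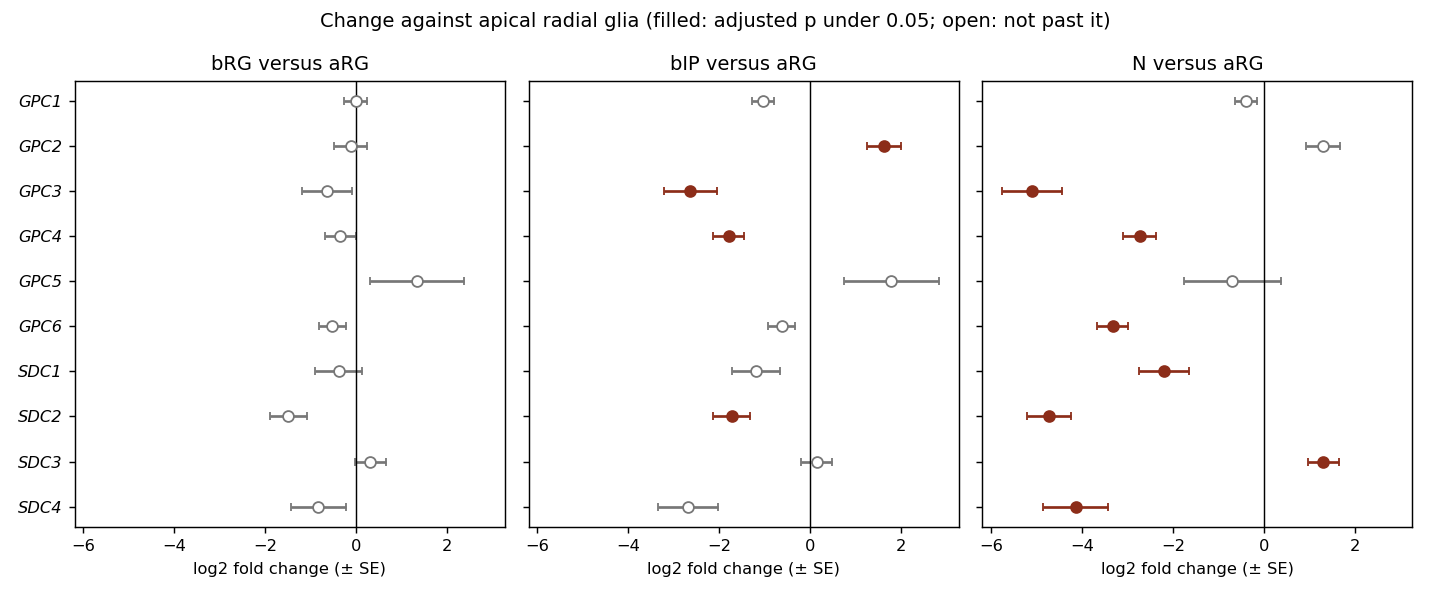
log2 fold change against aRG (horizontal axes) of each member in bRG, bIP and N, with bars of 1 SE from the edgeR fit and filled points for an adjusted p under 0.05. No member is called in bRG, 4 are called in bIP and 7 in N.

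No member passed the test between the radial glia populations. edgeR called 0 of 10 between bRG and aRG, where it called 1 of all 35382 genes (0.00283%). DESeq2 also called 0 members, where it called 118 of all genes (0.334%). At an unadjusted p under 0.05 there was 1 member, SDC2, lower in bRG at -1.49 (SE 0.41, adjusted p = 0.793, DESeq2 adjusted p = 0.0600). Its 2 bRG libraries (9.05 and 7.97 CPM) lay well below the 2 aRG libraries (20.8 and 27.0 CPM), and the part of the other tissue markers in aRG was not tested. GPC1 and GPC2 were at -0.01 and -0.12 with SEs of 0.25 and 0.37, and the sign of GPC2 turned without the second aRG library (0.46) or the first bRG library (0.27). Without the second aRG library the sign also turned for GPC3 (0.12, beside -0.63) and SDC1 (0.20, beside -0.38). Other lists moved in this comparison. An unadjusted p under 0.05 was found for 9 of 10 neuronal markers (median 1.21) and 10 of 10 mitosis markers (median -1.28), with 0 called. The same held for 7 of 8 choroid plexus markers (median -2.63) and 6 of 9 mesenchymal markers (median -2.23). The 1 gene that edgeR called was a choroid plexus marker, lower in bRG. Over all 35382 genes, 1318 had an unadjusted p under 0.05. The part of these lists in the values of the members was not tested. The median difference of the members was -0.37, beside 0.02 over all genes.

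Between bIP and bRG edgeR called 0 of 10 members, where 1.03% of all genes were called. DESeq2 called 5, where it called 3.30% of all genes. The same number had an unadjusted p under 0.05 in edgeR: GPC2 was higher in bIP at 1.75 (SE 0.38, adjusted p = 0.0572), and GPC1, GPC3, GPC4 and SDC4 were lower at -1.02, -2.00, -1.43 and -1.86. Between N and bRG 6 members were called, 5 lower in N (GPC3, GPC4, GPC6, SDC2 and SDC4) and GPC2 higher. There 6.01% of all genes were called (3.39% lower and 2.62% higher in N), and 15.3% of those with at least 10 CPM.

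**Figure D3:**
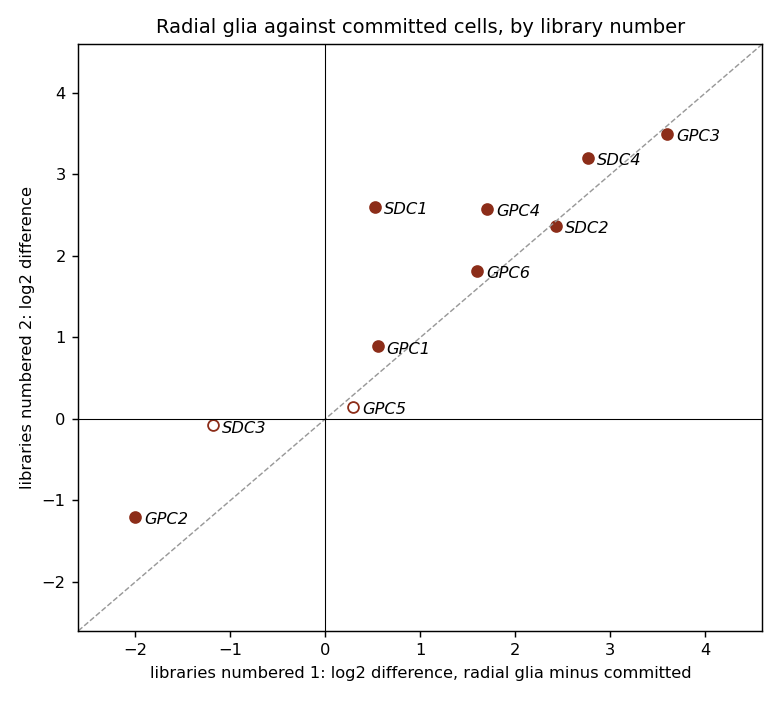
Difference of mean log2(CPM + 0.1) between radial glia (aRG, bRG) and committed cells (bIP, N) computed in the libraries numbered 1 (horizontal axis) and in those numbered 2 (vertical axis), with filled points for members called over all 8 libraries and a dashed line of equality. GPC3, SDC2 and GPC6 lie near the line, while SDC1 is at 0.52 and 2.60.

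The direction of the difference between radial glia and committed cells was the same in both sets of libraries for the 8 called members. It was 3.60 and 3.50 for GPC3, 2.43 and 2.37 for SDC2, and 1.60 and 1.82 for GPC6. GPC4 had 1.70 and 2.58, SDC4 2.76 and 3.20, GPC1 0.55 and 0.89, and GPC2 -2.00 and -1.20. SDC1 differed most between the sets, at 0.52 and 2.60. SDC3, which did not pass (-0.58, SE 0.24, adjusted p = 0.189), was at -1.18 and -0.08. GPC5, which did not pass either (0.12, SE 0.72, adjusted p = 0.962), was at 0.29 and 0.15.

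The make-up of each family differed between the populations. The share of GPC2 in all glypican reads was 2.76% and 4.68% in aRG, 2.70% and 5.21% in bRG, 19.9% and 26.0% in bIP, and 14.2% and 20.3% in N. GPC3 held 8.53% and 17.4% of glypican reads in aRG but 0.337% and 1.17% in N, and GPC4 went from 22.2% and 21.5% to 7.04% and 4.64%. GPC1 held 46.9% to 65.3% in the 6 progenitor libraries and 77.1% and 72.7% in N. Among syndecan reads SDC3 held 58.9% and 63.5% in aRG, 73.2% and 78.7% in bRG, 82.4% and 84.9% in bIP, and 95.5% and 98.0% in N. The Wilson 95% intervals were 57.3% to 60.5% in the first aRG library and 97.6% to 98.3% in the second N library, and they cover counting error only, since PCR copies are not independent molecules. The panTro6 counts may also include both mates of a read pair, as they were 1.43 to 2.16 times the hg38 counts (medians of the 8 members), so these intervals may be too narrow and the low counts of SDC2, SDC4 and GPC5 in N may stand for fewer fragments. Read shares also depend on transcript length, so they compare a gene across populations and not 1 gene with another. A share also rises when other members fall. GPC1 averaged 416 CPM in N and 546 in aRG although its share was higher in N. SDC3 did not pass between bIP and aRG (0.15, SE 0.34, adjusted p = 0.932) although its share was higher in bIP. Summed over the 10 members, the level was 1077 and 1327 CPM in aRG, 1017 and 1147 in bRG, 734 and 628 in bIP, and 959.7 and 778 in N.

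**Figure D4:**
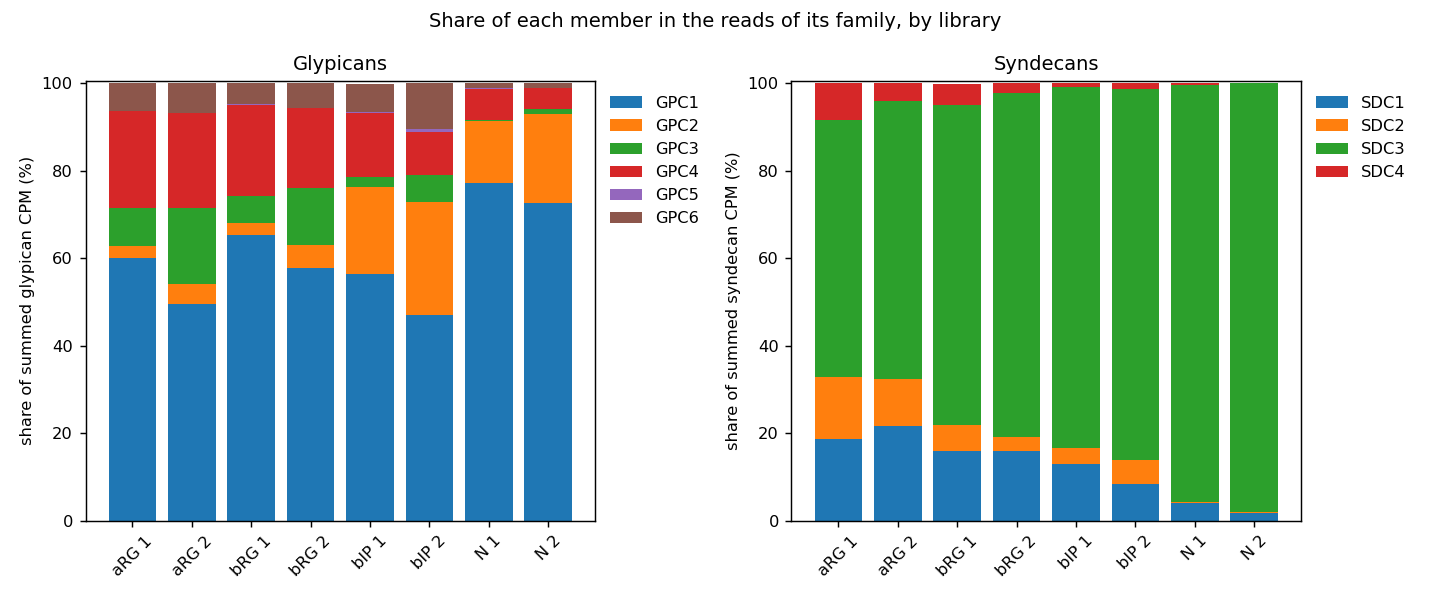
Share (%, vertical axis) of each member in the summed CPM of the 6 glypicans (left) and the 4 syndecans (right), 1 stacked bar per library. The share of GPC2 widens in bIP and N, that of GPC3 and GPC4 narrows, and SDC3 fills 95.5% and 98.0% of the syndecan bars in N.

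The same libraries counted on the human genome hg38 were used as a check on 8 members. With hg38 counts 6 of these 8 were called between radial glia and committed cells, beside 19.1% of the 16353 genes tested on hg38. GPC3 and GPC4 were not analysed on hg38 here, so their values rest on panTro6. Over 8 libraries the Pearson r of log2 levels between the genomes was 0.996 to 0.999 for each of the 8, a description of the same reads counted in 2 ways. The median ratio of hg38 to panTro6 CPM was 1.06 for GPC1 and 0.959 for SDC3, and farthest from 1 for GPC5 (1.47) and GPC6 (1.42). The library protocol does not mark strand, so overlapping genes may share reads. By the RefSeq annotation of a different assembly (NHGRI_mPanTro3-v2.0), GPC2 overlaps STAG3, a meiotic cohesin gene, and GPC6 overlaps DCT, a melanin synthesis gene. STAG3 was at 26.0 to 43.3 CPM over the 8 libraries. DCT was at 162 and 36.0 CPM in aRG and 8.51 and 4.01 in N. The part of their reads in the values of GPC2 and GPC6 was not tested. GPC3 lies next to GPC4 and GPC5 next to GPC6 in that assembly.

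Genes whose levels followed each member most closely over the 8 libraries were listed by Pearson r of log2(CPM + 1), among 12393 genes, as a description only. GPC3 was nearest to TTPA (r = 0.999), a vitamin E transfer protein, TNFRSF1A (0.997), a TNF receptor, and GDPD2 (0.993), a phosphodiesterase of the family that can cut GPI anchors. SDC4 was nearest to CDKN3 (0.998), a cell cycle phosphatase, and GPC4 to CDH23 (0.995) and CEP152 (0.993), a cadherin and a centriole protein. The 10 mitosis markers summed to 4519 and 3761 CPM in aRG, 1808 and 1647 in bRG, 346 and 478 in bIP, and 144 and 100.4 in N, and their part in the levels of SDC4 and GPC4 was not tested. GPC6 was nearest to AP000962.1 (0.995) and also close to NR2E1 (0.990), a neural stem cell transcription factor. GPC2 was nearest to TP53INP2 (0.986), an autophagy protein, SDC3 to SGSM2 (0.987), SDC2 to PAFAH2 (0.987), SDC1 to FHOD1 (0.988), and GPC1 to PEA15 (0.988). Between members the closest pairs were SDC4 with GPC4 (r = 0.97) and SDC2 with GPC6 (0.95), and the most opposed were GPC2 with GPC1 and with SDC4 (both -0.84).

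XYLT1 was the only gene called among the enzymes that build heparan sulfate chains. Of 6 tested linker enzymes, which start the chain on the core protein, 1 was called between N and aRG, and of 5 chain polymerases 0 were called in any comparison by edgeR, where 2 had an unadjusted p under 0.05 between N and aRG. Over all genes 9.67% were called between N and aRG, and 23.4% of those with at least 10 CPM. The list medians for N against aRG were 0.18 and -0.22, beside -0.08 over all genes. XYLT1, the xylosyltransferase that adds the first sugar, fell by 3.17 log2 units (SE 0.29, adjusted p = 3.98e-05), from 128 and 152 CPM in aRG to 18.3 and 12.8 in N, and its libraries in bRG (86.7 and 105) and bIP (72.6 and 73.3) lay between. EXTL3, a starter of chain elongation, was at 0.09 (adjusted p = 0.909) and at -0.28 without the first aRG library, and B3GAT3, which adds the last linker sugar, at 0.17 (adjusted p = 0.753).

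The enzymes that modify the chain went both ways. Of 15 tested sulfation and epimerase enzymes, 4 rose and 2 fell from aRG to N, with a list median of 0.84. There 9.67% of all genes were called, and 23.4% of those with at least 10 CPM. NDST3, an N-deacetylase and N-sulfotransferase that starts sulfation, rose by 4.73 (SE 0.79, adjusted p = 0.00203), from 2.05 and 6.28 CPM in aRG to 81.3 and 141 in N. It stayed called in N without any 1 library, at 4.08 without the first aRG library and 5.74 without the second. HS6ST3, a 6-O-sulfotransferase, fell by 3.45 (SE 0.57, adjusted p = 0.00184), from 37.0 and 50.8 CPM to 5.92 and 2.07, or by 4.41 without the first N library. GLCE, the epimerase that makes iduronic acid, rose from aRG to bIP by 1.68 (SE 0.25, adjusted p = 0.00346), from 44.8 and 53.0 CPM to 151 and 164. HS6ST1 did not pass between N and aRG (0.78, adjusted p = 0.277).

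Of 10 genes that edit chains or release core proteins, 1 rose and 2 fell from aRG to N, with a list median of -0.29. The share called was 9.67% over all genes and 23.4% over those with at least 10 CPM. GDPD2 fell by 5.28 (SE 0.73, adjusted p = 0.000574), from 24.5 and 78.1 CPM to 0.619 and 2.03. The value ran from -4.23 without the second aRG library to -6.36 without the second N library and was called in each case. GDPD5, a phosphodiesterase that can cut GPI anchors and act in motor neuron differentiation, rose by 2.52 (SE 0.48, adjusted p = 0.00476), from 8.97 and 21.4 CPM to 98.1 and 76.2, or by 3.25 without the second aRG library. SULF1, an extracellular sulfatase, fell by 2.57 (SE 0.60, adjusted p = 0.0162), a call lost without the second aRG library (0.0750) or the first N library (-1.92, adjusted p = 0.0705), and -3.76 without the second N library. ADAM17, a protease that sheds syndecan ectodomains, did not pass (-0.59, adjusted p = 0.241).

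Other heparan sulfate proteoglycans were lower in neurons, with 3 of 3 tested genes (HSPG2, COL18A1 and TGFBR3) called between N and aRG. The list median was -2.81. In that test 9.67% of all genes were called (4.80% lower in N), and 23.4% of those with at least 10 CPM. HSPG2, perlecan of the basement membrane, fell by 3.59 (SE 0.53, adjusted p = 0.000820), from 78.1 and 56.2 CPM to 8.55 and 2.55, and COL18A1, a basement membrane collagen, fell by 2.81 (SE 0.37, adjusted p = 0.000399). HSPG2 was at -4.72 without the first N library and -2.97 without the second, both called. Agrin (AGRN) was at 0 counts in every panTro6 library but at 60.6 ± 13.3 CPM in aRG, 63.9 ± 10.6 in bRG, 52.3 ± 24.5 in bIP and 53.7 ± 6.93 in N on hg38, so its 0 on panTro6 is not taken as a level in these cells.

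Proteins that bind the syndecan tails were measured in 9 genes, of which 2 rose and 1 fell from aRG to N. The list median was 0.21. For comparison, 9.67% of all genes and 23.4% of those with at least 10 CPM were called. EZR, the ezrin linker of membrane to actin, was highest in bIP at 241 and 409 CPM and fell by 2.77 (SE 0.36, adjusted p = 0.00192) from bIP to N (62.9 and 32.5). PRKCA, a kinase that SDC4 recruits, rose by 1.70 (SE 0.31, adjusted p = 0.00330) from 23.6 and 27.9 CPM in aRG to 80.0 and 87.6 in N, while SDC4 itself fell. TIAM1, a RAC activator bound by SDC1 and SDC3, rose by 1.12 (SE 0.30, adjusted p = 0.0354), a call lost without either aRG library or either N library (adjusted p of 0.0578 to 0.207).

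Among 20 ligands that bind heparan sulfate, 6 rose and 4 fell from aRG to N, with a list median of 0.06. Calls covered 9.67% of all genes and 23.4% of those with at least 10 CPM. PTN, pleiotrophin and a ligand of SDC3, fell by 4.32 (SE 0.43, adjusted p = 6.01e-05), from 475 and 872 CPM in aRG to 39.3 and 28.1 in N. BMP7 fell by 4.93 (SE 0.41, adjusted p = 1.69e-05), from 73.5 and 89.3 CPM to 2.55 and 2.76. SLIT1, a repulsive axon guidance protein that binds GPC1, rose by 4.13 (SE 0.37, adjusted p = 2.97e-05), from 37.4 and 56.2 CPM to 779 and 862.

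Of 12 receptors that work with these proteoglycans, 5 rose and 3 fell from aRG to N, with a list median of 0.21. Again 9.67% of all genes were called, and 23.4% of those with at least 10 CPM. FGFR1 fell by 4.79 (SE 0.47, adjusted p = 5.39e-05), from 462 and 806 CPM to 32.1 and 13.6, or by 5.55 without the first N library, and FGFR3 fell by 3.19 (SE 0.34, adjusted p = 0.000106). PTPRD, a receptor phosphatase whose relatives bind heparan sulfate at axons and synapses, rose by 3.61 (SE 0.37, adjusted p = 8.22e-05), from 21.4 and 38.1 CPM to 310.3 and 417. PTPRZ1, a pleiotrophin receptor, rose by 0.98 (SE 0.27, adjusted p = 0.0382), a call lost without the first aRG library (adjusted p = 0.223), the second aRG library (0.108), the first bIP library (0.0501) or the first N library (0.276), and with only the aRG and N libraries in the model (0.103).

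**Figure D5:**
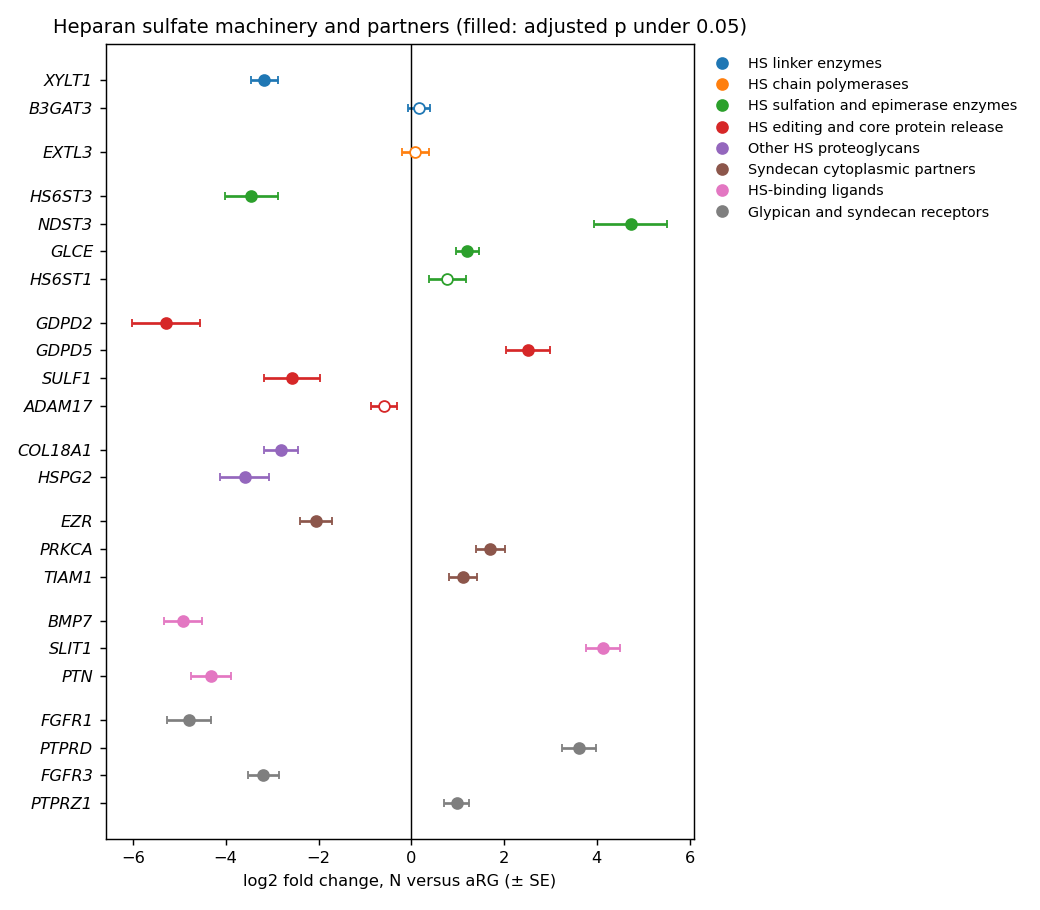
log2 fold change between N and aRG (horizontal axis) of the named genes of 8 heparan sulfate lists, coloured by list, with bars of 1 SE from the edgeR fit and filled points for an adjusted p under 0.05. HSPG2 and COL18A1 lie to the left like most core proteins, while the sulfation enzymes, ligands and receptors lie on both sides.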

How the data were processed

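Per the labels' protocols, RNA of sorted cells was reverse-transcribed and amplified by a Smart-seq2 type protocol without strand marks. The authors deposited whole-number read counts per gene on panTro6 and on hg38. STAR was used per the submitters' processing notes, with the annotation, counter and strand option not given in the sources used here. In the panTro6 table counts of 2 (21576 values) outnumber counts of 1 (16443), so both mates of a pair may be counted, and halved counts were also tested. A row without a gene name (0.00545% to 0.00771% of counts) was left out. All values not named as hg38 come from panTro6, whose totals were 24649971 to 33245892.

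Genes passing filterByExpr (35382) were scaled by TMM and fitted with edgeR 4.0.16 (glmQLFit, glmQLFTest, R 4.3.3) with 1 term for each population, leaving 4 residual degrees of freedom. Tests were two-sided with a Benjamini-Hochberg threshold of 0.05. The SE is the absolute log2 fold change divided by the root of F. Within-number differences add 0.1 CPM. The code was tested on simulated data. The members and lists were chosen with earlier results of these data known. All members are described. From each list the text names up to 3 genes with the smallest adjusted p in a pairwise comparison and a mean of at least 10 CPM, and the gene with the highest mean. DESeq2 1.42.0 and other settings were alternatives, and leaving out each library was another.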

Additional observations from a re-analysis of the deposited data

How the results depend on the processing

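Of 70 fold changes of members and 62 of named genes followed, no called one reversed, and 12 not called did. Over the fits that leave out 1 library, the log2 values of bRG against aRG ran from -0.09 to 0.03 for GPC1 (also 0.00 on hg38 and 0.03 with at least 5 CPM in 2 libraries), -0.73 to 0.46 for GPC2, -1.36 to 0.12 for GPC3, -0.83 to 0.20 for SDC1 and -0.19 to 0.82 for SDC3. They ran from -0.26 to 0.66 for SDC3 in bIP against aRG, and in N against aRG from -2.54 to 0.08 for GPC5 and -0.28 to 0.45 for EXTL3. Between bIP and bRG they ran from -0.44 to 1.44 for GPC5, -0.39 to 0.13 for GPC6 and -0.51 to 0.31 for SDC3, and for radial glia against committed cells from -0.34 to 1.05 for GPC5. The number of members called between bIP and aRG was 4 (2.83% of all genes), and 7 with no low-count filter (4.25%). It was 6 by DESeq2 (6.25%), with at least 5 CPM in 2 libraries (8.36%) and with halved counts (3.89%). The replicate block (6%) and edgeR's robust option (2.94%) also gave 6. On hg38 it was 3 of the 8 members tested (7.28%). Between bIP and bRG it was 0 (1.03% of all genes), but 5 by DESeq2 (3.30%), 4 with no low-count filter (2.34%), 4 with the replicate block (3.17%), 1 on hg38 (2.96%) and 1 with halved counts (1.48%), and 0 to 2 without 1 library. Between N and bIP it was 2 (2.54% of all genes), but 4 by DESeq2 (6.88%), 5 with no low-count filter (4.46%), 6 with the replicate block (6.12%) and 1 with only those populations in the fit (1.89%), and 2 to 3 without 1 library. In these settings named with a share, the share of all genes moved the same way as the member count, with 1 exception. On hg38, for bIP against aRG, the share rose while the member count fell. With the robust option the share for bIP against aRG moved little (2.94% beside 2.83%). The cause was not tested. The count was 7 for N against aRG (9.67% of all genes) and 6 for N against bRG (6.01%). It was 8 for radial glia against committed cells (9.39%) and 0 for bRG against aRG (0.00283%). Apart from leaving out 1 library, no setting moved these 4 counts by over 1.5 times. For radial glia against committed cells a fit with only the populations compared was not run, since it uses all 4. A fit that leaves out 1 library leaves a lone library, assumed to vary like the others. Of the 27 called fold changes of members, 5 were lost in 1 or more of the other settings and 10 without 1 library. The replicate block used the library number as a term. Deviations from the population means correlated at 0.0462 to 0.104 between populations, and the main fit took the libraries as unpaired. That correlation is over all 35382 genes tested, of which 12402 averaged 10 CPM or more in a population. It cannot exclude a shared effect of the number. With the block, 6% of all genes were called between bIP and aRG, beside 2.83% without it. Between bRG and aRG it was 0.11%, beside 0.00283%. The block lost no call, and whether the numbers pair the libraries was not tested further. Counts of GPC5, and of SDC4 and SDC2 in N, limit what could be detected.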

Other observations

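Library 2 of each population held more GPC3 and more GPC2 than library 1. The ratio of library 2 to library 1 was 2.36 in aRG, 2.23 in bRG, 2.30 in bIP and 2.73 in N for GPC3, and 1.97, 2.00, 1.16 and 1.12 for GPC2. GPC1 was lower in library 2 of all 4 populations, at 0.954, 0.917, 0.737 and 0.738. SDC3 had 1.83 and 1.77 in the radial glia populations and 0.788 and 0.884 in bIP and N. What the numbers stand for was not tested.

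B3GALT6, which adds a linker sugar, was at 0 counts in all panTro6 libraries, like AGRN. On hg38 it was at 49.4 ± 15.0 CPM in aRG, 39.9 ± 17.4 in bRG, 36.7 ± 14.2 in bIP and 94.2 ± 43.6 in N, as mean ± SD over 2 libraries.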
